A study of Mus musculus with 6 samples.

Results

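The genes described here are 9 complement genes that macrophages transcribe: C1qa, C1qb, C1qc, C4b, C3, Cfb, Cfp, C3ar1 and C5ar1. They were taken by symbol from a table of 15415 genes, were chosen on the fold changes of this comparison, by the decrease of C4b, one of the largest in the table, and all 9 lie among the 9030 genes with a mean of at least 1 FPKM in one group (reads scaled by gene length and by library). RNA came from PEMs, macrophages elicited in the mouse peritoneum by starch, in 3 libraries of the genotype LysM-Cre; Tim-4 fl/fl (knockout libraries 1 to 3) and 3 of the genotype Tim-4 fl/fl (control libraries 1 to 3). Tim-4, a receptor for phosphatidylserine encoded by Timd4, is floxed in both groups. Only the knockout mice carry Cre, which is inserted in the lysozyme gene Lyz2 and acts in other myeloid cells as well as in macrophages. The labels give LPS as the treatment of every library. The study's methods describe male C57BL/6J mice of 6 to 8 weeks, a 6% starch solution with harvest after 3 days, and LPS at 1 µg/ml for 3.5 hours, without saying that the sequenced PEMs were activated in that way. In the labels the genotype entries and the titles assign the groups in opposite ways, and the titles were followed. By the titles, Timd4 and Lyz2 were lower in every knockout library than in any control library, with values given below. The labels do not say whether the libraries came from separate mice, and the study's legends speak of biological replicates without tying them to the libraries, so errors and p-values measure the spread between these libraries.

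Complement is a set of proteins that tag microbes and dying cells for uptake. C1q, built from chains encoded by C1qa, C1qb and C1qc, recognises targets and starts the classical pathway, in which C4 helps to form the enzyme that cleaves C3. In the alternative pathway factor B (Cfb) forms that enzyme with C3 and properdin (Cfp) stabilises it, and the released fragments C3a and C5a act on cells through C3ar1 and C5ar1. The liver makes most of the C3 and C4 of the blood, while macrophages are a main source of C1q and properdin in tissues.

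Several facts of the libraries touch every value below. They held between 36170767 and 42217558 reads on listed genes, and the lowest member value, C4b in knockout library 1, still rested on 223 reads. Timd4 stood at 0.246 to 0.394 FPKM across the knockout libraries, against 19.5, 12.0 and 1.19 FPKM across control libraries 1, 2 and 3, so that control library 3 stood nearest to the knockout group (log2 fold change -2.66, adjusted p = 0.0715, limma). The floxed part covers some exons only, and values per gene do not show which exons were read. Lyz2 stood at 41.4, 4656 and 106.0 FPKM across knockout libraries 1, 2 and 3 against 7090 to 8482 FPKM in the controls, so that knockout library 2 stood apart. Fold changes are therefore also given without control library 3, and without knockout library 2 for C1qa, C1qc, C4b, C5ar1, Vsig4, Itgax and Fcna. The median log2 fold change over all tested genes was -0.11, and it became 0.02 once the values were rescaled by the median of ratios.

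Of the 9 genes, 2 were past an adjusted p of 0.05 in the fit over all genes (C4b lower, C3ar1 higher), where 7.31% of all tested genes were past it, 4.74% lower and 2.57% higher. They were the same 2 with the replicate number as a block, where 9.47% of all tested genes were past it. Groups of libraries did not overlap for 5 of the 9, with knockout below control for C4b, C3 and Cfp and above it for C1qb and C3ar1, where 34.1% of all tested genes had no overlap (23.0% with knockout below, 11.1% with knockout above). Nothing is read from these counts, since this contrast chose the genes. The number past the threshold was 7 without control library 3 (14.8% of all tested genes), 5 without control library 3 and knockout library 2 together (5.80%), and 0 without control library 2 (0.0888%). Without knockout library 1, 2 or 3 it was 1 each time (C3ar1), and without control library 1 it was 3 (8.68% of all tested genes). Of all tested genes, 0.33%, 0.699% and 5.85% were past it without knockout library 1, 2 and 3, respectively. The median log2 fold change of the 9 genes was -0.70.

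**Figure D1:**
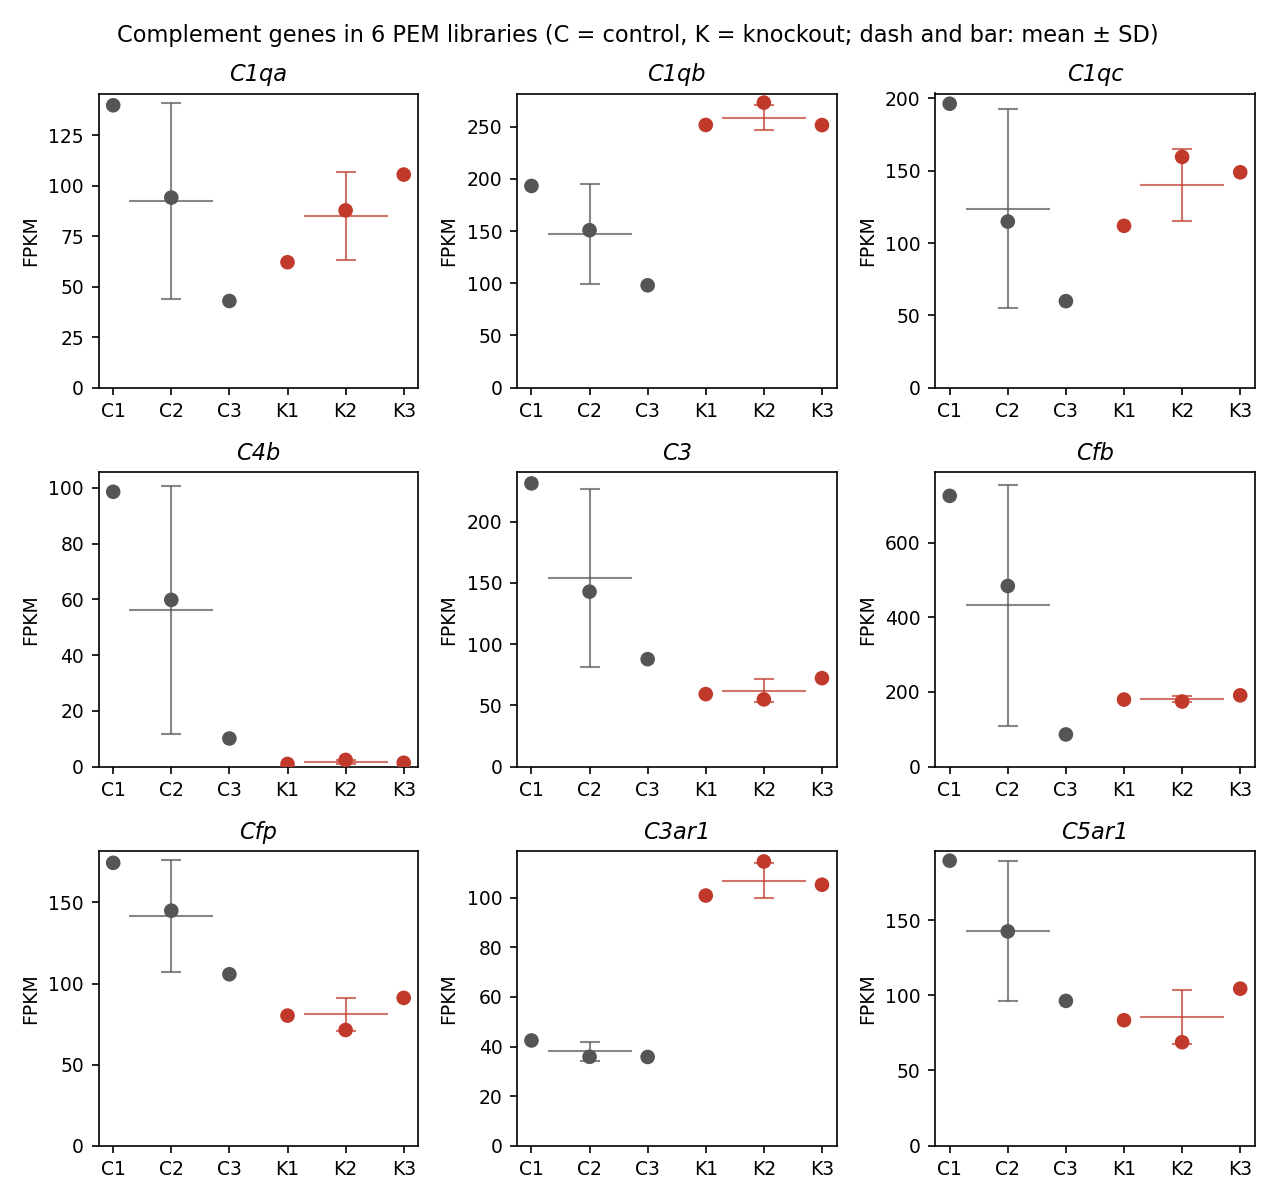
FPKM (linear axes) of each of the 9 complement genes in control libraries C1 to C3 and knockout libraries K1 to K3, with the mean and SD of each group. C4b lies at 2.42 FPKM or less in every knockout library, C3ar1 and C1qb are higher in every knockout library than in any control library, and control library 3 is the lowest control for all 9 genes.

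The regions upstream of 6 of the 9 genes (C1qb, C1qc, C3, Cfp, C3ar1 and C5ar1) were found in the RefSeq promoter table of GRCm38.p6, a later build than the mm9 named in the labels. The 250 bases before the start site are shown for C1qb and C1qc, neighbours on chromosome 4 whose values differed in whether the groups overlapped, and for C3 and C3ar1, a ligand precursor and a receptor with fold changes of opposite sign. All 4 lie on the minus strand and are written 5′ to 3′ as transcribed, at chr4:136886201-136886450, chr4:136892915-136893164, chr17:57228137-57228386 and chr6:122856158-122856407 in that order. For C1qb, the bases just after the RefSeq start were found in no GENCODE transcript of the gene, so the place of its start is uncertain. Capitals mark motif matches.
C1qb: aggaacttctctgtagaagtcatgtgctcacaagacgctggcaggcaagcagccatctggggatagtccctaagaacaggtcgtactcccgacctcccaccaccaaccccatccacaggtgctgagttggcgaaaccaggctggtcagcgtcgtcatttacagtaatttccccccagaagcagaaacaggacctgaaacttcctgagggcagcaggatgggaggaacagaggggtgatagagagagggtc
C1qc: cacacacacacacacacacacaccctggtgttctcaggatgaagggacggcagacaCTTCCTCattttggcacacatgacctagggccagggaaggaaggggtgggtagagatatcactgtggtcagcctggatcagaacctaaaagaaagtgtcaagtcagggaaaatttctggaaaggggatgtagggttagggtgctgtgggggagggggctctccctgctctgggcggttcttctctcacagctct
C3: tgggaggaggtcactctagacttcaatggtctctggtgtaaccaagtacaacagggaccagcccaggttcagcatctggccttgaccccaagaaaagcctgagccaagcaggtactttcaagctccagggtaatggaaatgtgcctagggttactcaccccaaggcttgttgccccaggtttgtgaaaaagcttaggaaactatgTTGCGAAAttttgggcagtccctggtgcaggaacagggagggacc
C3ar1: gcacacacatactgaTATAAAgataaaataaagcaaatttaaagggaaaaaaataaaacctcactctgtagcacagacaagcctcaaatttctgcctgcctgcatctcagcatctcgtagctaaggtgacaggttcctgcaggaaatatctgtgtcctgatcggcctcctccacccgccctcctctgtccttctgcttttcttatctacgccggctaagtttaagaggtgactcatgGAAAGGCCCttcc
Both strands were searched for GAAANNGAA (interferon element core), TTCNNNGAA (STAT site), GAGGAAG (PU.1 core), GGGNNTTTC (kappaB form), TTNNGCAA (C/EBP form) and TATAAA (box of core promoters). The C1qc window held the PU.1 core on the opposite strand 194 bases before the start, and 10.6% of 32841 promoter windows hold these letters. The C3 window held the C/EBP form on the opposite strand (TTGCGAAA, 45 bases before the start), found in 9.57% of windows. The C3ar1 window held the kappaB form on the opposite strand (GAAAGGCCC, 13 bases before the start), found in 3.72% of windows, and TATAAA 235 bases before the start, found in 12.4%. The C5ar1 window held the interferon element core on the opposite strand (TTCCTTTTC, 66 bases before the start), found in 7.13% of windows, whereas the windows of C1qb and Cfp held none of the 6 motifs. A match of letters is a description and not a binding site.

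Of the C1q chains, which recognise the target, C1qb alone had groups that did not overlap. C1qb (Entrez 12260) stood at 251.7, 273.1 and 251.6 FPKM across knockout libraries 1 to 3, against 193.2, 150.8 and 98.1 FPKM across control libraries 1 to 3. Each knockout library was above each control library, and the mean was 1.76 times that of the controls (log2 fold change 0.86, standard error 0.24; 0.60 without control library 3). C1qa (Entrez 12259) stood at 62.2, 87.9 and 105.6 FPKM across the knockout libraries, against 139.9, 94.2 and 42.9 FPKM across the controls. Its control range spanned its whole knockout range, and the log2 fold change of 0.01 (standard error 0.42) became -0.46 when control library 3 was left out, 0.38 when control library 1 was and -0.03 when knockout library 2 was, so no direction is given. C1qc (Entrez 12262) stood at 111.9, 159.5 and 148.9 FPKM across the knockout libraries, against 196.3, 114.9 and 59.8 FPKM across the controls. The controls again lay on both sides of the knockout libraries (log2 fold change 0.32, standard error 0.40; -0.12 without control library 3, 0.73 without control library 1 and 0.22 without knockout library 2), so no direction is given. In bulk libraries such as these, fewer cells of a type and less RNA per cell cannot be told apart.

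The balance between the chains, which are needed together for one protein, also differed between the groups. C1qb made up 59.1%, 52.5% and 49.7% of the summed FPKM of the 3 chains in knockout libraries 1 to 3 and 36.5%, 41.9% and 48.8% in control libraries 1 to 3. The means were 53.8% ± 4.84 in the knockout and 42.4% ± 6.18 in the control libraries (SD, n = 3 each), and the groups did not overlap, although knockout library 3 and control library 3 were next to each other. C1qa took 14.6%, 16.9% and 20.9% in the knockout libraries and 26.4%, 26.2% and 21.4% in the controls, again without overlap and with the closest values in the libraries numbered 3. The share of C1qc was 26.3% to 30.7% in the knockout and 29.8% to 37.1% in the control libraries, which overlapped. The ratio of C1qb to C1qa ran from 2.38 to 4.05 in the knockout and from 1.38 to 2.28 in the control libraries. Summed over the chains, FPKM was 426, 520.5 and 506 in the knockout libraries and 529, 359.9 and 200.8 in the controls, so that control library 1 was above all knockout libraries and controls 2 and 3 were below them. These shares come from the same contrast as the choice of genes and were not tested.

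**Figure D2:**
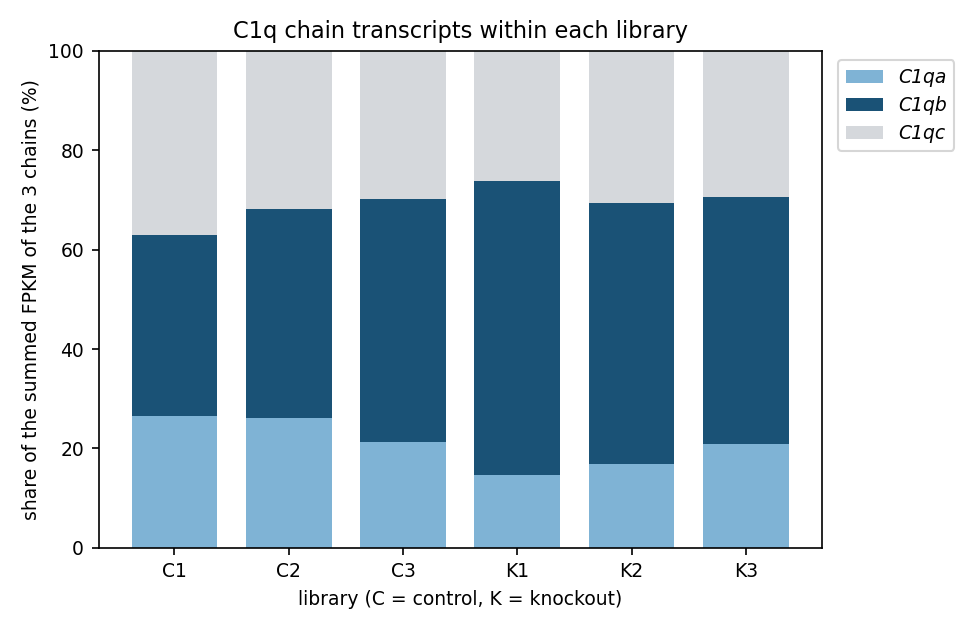
Share (%) of the summed FPKM of C1qa, C1qb and C1qc taken by each chain in each library (C, control; K, knockout). The C1qb share runs from 36.5% to 48.8% in the controls and from 49.7% to 59.1% in the knockout libraries.

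C4b, which encodes complement C4 of the classical pathway, showed the widest gap of the 9 genes. C4b (Entrez 12268) stood at 0.968, 2.42 and 1.41 FPKM across knockout libraries 1 to 3, against 98.6, 59.8 and 10.1 FPKM across control libraries 1 to 3. All knockout libraries were below all controls, while the controls themselves differed 9.76-fold from highest to lowest. The mean was 35.1 times higher in the controls (1.60 ± 0.747 against 56.2 ± 44.4 FPKM, SD, n = 3 each). The log2 fold change was -4.01 (standard error 0.74), and it was -4.94 when control library 3 was left out, -4.22 when knockout library 2 was and -3.36 when control library 1 was. With all libraries it was -4.62 at a pseudocount of 0.1 and -4.59 with voom on recovered reads. In reads, C4b stood at 223, 561 and 316 in the knockout and 21328, 12766 and 2003 in the control libraries. C4a, a near-identical copy of C4b, is not listed among the 15415 genes, and how the authors' counting divided reads between the copies is uncertain.

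C3, the protein on which all routes of activation meet, was also lower in each knockout library. C3 (Entrez 12266) stood at 59.2, 54.9 and 72.3 FPKM across the knockout libraries, against 231.2, 142.9 and 87.8 FPKM across the controls. The highest knockout library and the lowest control library lay close together, and the mean was 2.48 times higher in the controls (log2 fold change -1.20, standard error 0.33; -1.54 without control library 3). Cfb (Entrez 14962), factor B of the alternative pathway, stood at 179.7, 174.4 and 191.0 FPKM across the knockout libraries, against 725.1, 483.8 and 86.3 FPKM across the controls. Control libraries 1 and 2 were above all knockout libraries and control library 3 was below all of them. The log2 fold change of Cfb was -0.78 (standard error 0.70), -1.70 without control library 3 and -0.17 without control library 1, so its size rests on which controls are kept. Cfp (Entrez 18636), properdin, stood at 80.2, 71.3 and 91.1 FPKM across the knockout libraries, against 174.4, 144.9 and 105.7 FPKM across the controls. The groups of Cfp did not overlap, with a mean 1.75 times higher in the controls (log2 fold change -0.78, standard error 0.20; -0.97 without control library 3).

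The receptors for the fragments C3a and C5a had fold changes of opposite sign. C3ar1 (Entrez 12267) stood at 100.9, 114.7 and 105.3 FPKM across knockout libraries 1 to 3, against 42.5, 35.8 and 35.8 FPKM across control libraries 1 to 3. It was the only one of the 9 genes whose controls kept within 1.19-fold of each other, and every knockout library lay above every control. The mean was 2.81 times that of the controls (log2 fold change 1.47, standard error 0.13), and the value stayed between 1.42 and 1.55 when any one library was left out. C5ar1 (Entrez 12273) stood at 83.4, 68.8 and 104.4 FPKM across the knockout libraries, against 189.6, 142.5 and 96.3 FPKM across the controls. Knockout library 3 was above control library 3, so the groups overlapped (log2 fold change -0.70, standard error 0.27; -0.95 without control library 3 and -0.55 without knockout library 2). C5ar1 lies next to C5ar2, which encodes the other C5a receptor and was at most at 0.085 FPKM in all 6 libraries.

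**Figure D3:**
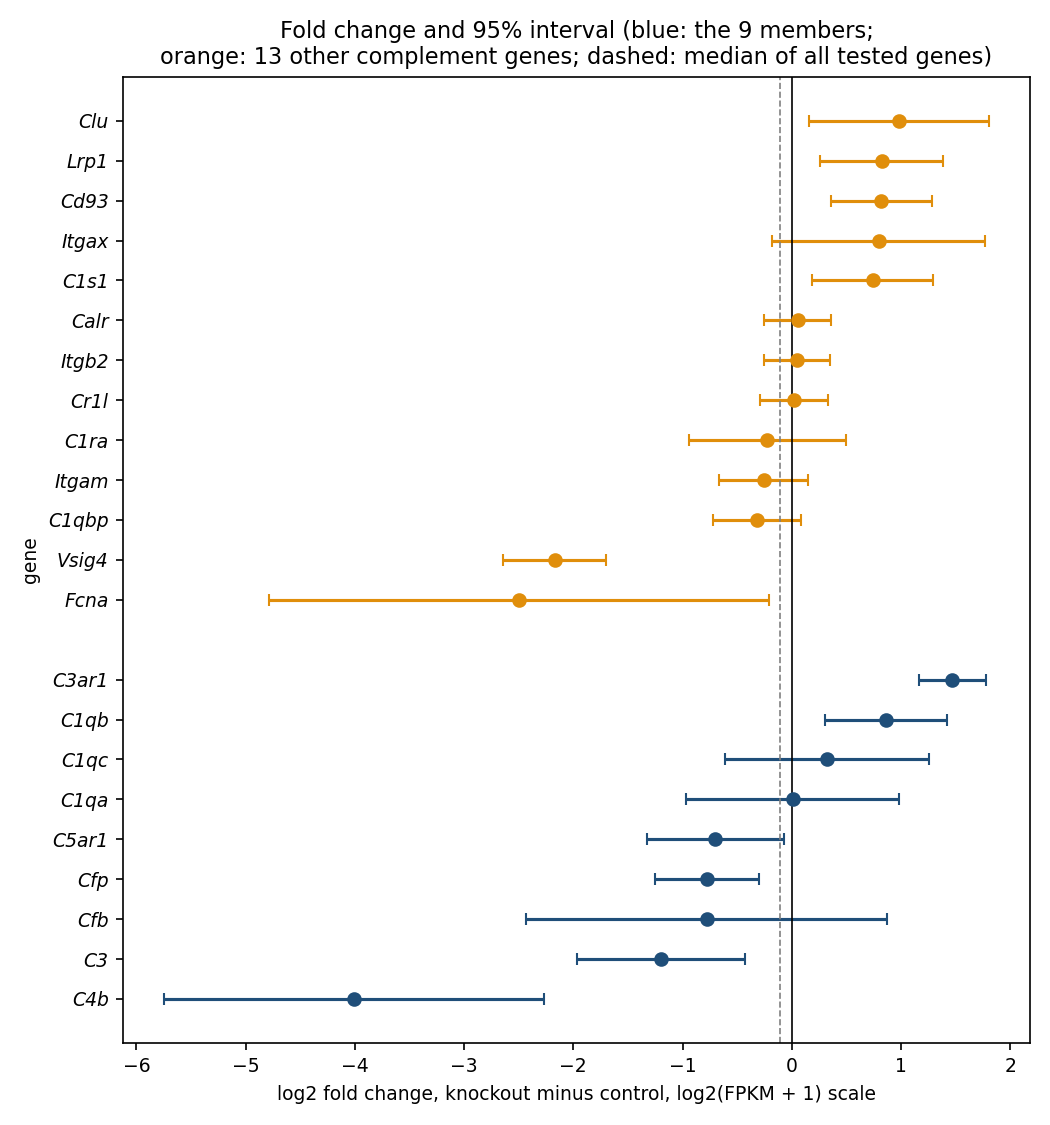
Log2 fold change (knockout minus control, log2(FPKM + 1) scale) with its 95% interval for the 9 complement genes (blue) and 13 other complement genes (orange). The dashed line is the median of all tested genes, -0.11, and the estimates for the 9 genes run from -4.01 for C4b to 1.47 for C3ar1.

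Per length, the order of levels was not the same in the groups. In the knockout libraries mean FPKM fell from C1qb (258.8) to Cfb (181.7), C1qc (140.1), C3ar1 (107.0), C5ar1 (85.6), C1qa (85.2), Cfp (80.9), C3 (62.1) and C4b (1.60). Neighbours in this order were separated by more than the range of their libraries between C1qb and Cfb, Cfb and C1qc, and C3 and C4b, and not elsewhere. In the control libraries the order was Cfb (431.7), C3 (153.9), C1qb (147.4), C5ar1 (142.8), Cfp (141.7), C1qc (123.7), C1qa (92.4), C4b (56.2) and C3ar1 (38.0), and the ranges of all neighbours overlapped. These are orders of means. In control library 3 alone C4b was the lowest of the 9 genes, and C3 and Cfb stood below Cfp, C1qb and C5ar1, with Cfb below C3.

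The controls varied more than the knockout libraries for these genes. The ratio of the highest to the lowest control library had a median of 2.64 over the 9 genes and 1.44 over all tested genes, against 1.32 and 1.25 among the knockout libraries. Control library 3 was the lowest control for 9 of the 9 genes, which held for 26.6% of all tested genes. Compared by the root mean square difference of their centred log2(FPKM + 1) profiles over the 6 libraries, the closest pair was Cfp and C5ar1 (0.11), followed by C1qa and C1qc (0.21), whereas the nearest of the 9 genes to C4b was C3, at 1.55. C1qb and C3ar1 were 0.38 apart.

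Among 5778 genes with a mean of at least 5 FPKM in one group, the profiles nearest to C4b were those of Prg4 (0.43), Chil3 (0.49) and Stfa3 (0.66), on the same measure. Prg4, which encodes lubricin and marks large resident peritoneal macrophages, stood at 2.33, 3.99 and 2.95 FPKM across the knockout libraries, against 113.6, 70.5 and 30.1 FPKM across the control libraries. Chil3, a chitinase-like protein of macrophages, stood at 45.4 to 78.3 FPKM across the knockout libraries, against 2991, 2094 and 144.0 FPKM across controls 1 to 3. Stfa3, a cysteine protease inhibitor of the stefin family, stood at 0.520 to 3.32 FPKM across the knockout libraries, against 13.1 to 50.5 FPKM across the control libraries. All of them shared with C4b the low level in the knockout libraries and the lowest control value in control library 3. The profiles nearest to the mean of the C1q chains, among 5776 genes, were those of Mt2 (0.07), a metallothionein, Gpsm2 (0.11) and Svbp (0.12). Mt2 stood at 111.6 to 161.0 FPKM across the knockout libraries, against 166.6, 124.7 and 67.4 FPKM across the control libraries, which overlapped as C1qa and C1qc did.

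Markers of other cells moved with the groups, and their part in the values of the complement genes was not tested. The sum over markers of macrophages in general overlapped between the groups, with 2847 to 3143 FPKM in the knockout and 2385 to 2941 FPKM in the control libraries (highest gene Cd68). Its members did not move together. Cd68 and Fcgr1 were above all controls in every knockout library (1572 to 1685 against 816 to 1379 FPKM, and 36.1 to 57.5 against 5.16 to 6.58 FPKM), while Csf1r and Cd14 were below all controls (83.3 to 143 against 151 to 180 FPKM, and 262 to 406 against 484 to 631 FPKM). Fcgr1, Csf1r and Cd14 were named after their values were seen. Beside C4b, C3 and Cfp, which were lower in the knockout libraries, the markers of large peritoneal macrophages summed to 4.76 to 8.67 FPKM in the knockout and 36.6 to 157 FPKM in the control libraries (highest gene Prg4). Timd4, the floxed gene, is itself on this list. Prg4, named above as nearest to C4b, gave most of each control sum (30.1 to 113.6 FPKM), so the sum is no separate observation. With the knockout range given first here and for the next lists, B cell markers summed to 2.85 to 5.78 and 28.8 to 121 FPKM (highest gene Cd79a). Mast cell markers summed to 1.89 to 2.27 and 38.2 to 49.3 FPKM (highest gene Tpsb2), and Fcer1a and Ms4a2 were listed at 0 in a library. Neutrophil markers summed to 41.2 to 72.6 and 159.2 to 172 FPKM (highest gene S100a8; S100a9 and Ngp at 0 in a library). S100a8 made up nearly all of each sum, at 39.9 to 70.5 and 155.5 to 170.7 FPKM. Camp was also lower in each knockout library, while S100a9 overlapped and Ngp was at 0 in every control. T cell markers summed to 1.07 to 1.72 and 2.68 to 10.7 FPKM (highest gene Cd2; Cd3d and Cd3e at 0 in a library). Most of the difference was in Cd2 (0.342 to 0.603 and 1.81 to 7.88 FPKM), while Lck overlapped (0.693 to 1.34 and 0.657 to 1.70 FPKM). Cd3d, Cd3e and Cd3g reached at most 0.468 FPKM in any library. Small peritoneal macrophage markers summed to 566 to 1381 and 946 to 2436 FPKM (highest gene Cd74). Markers of mesothelial cells and fibroblasts overlapped, at 15.5 to 38.3 FPKM in the knockout and 2.20 to 18.2 FPKM in the control libraries (highest gene Dcn; Krt19, Krt8 and Lum at 0 in a library). Dendritic cell markers (highest gene Flt3; Clec9a and Cd209a at 0 in a library) and eosinophil markers (highest gene Ccr3) reached the filter for no gene. Control library 3 had the lowest sum of the controls for large and small peritoneal macrophages, B cells and T cells, and the highest for mast cells, mesothelial cells with fibroblasts, and macrophages in general. The filter was passed only through the controls by 5 of the 6 tested markers of large peritoneal macrophages, 5 of 6 of B cells, 2 of 2 of T cells, 5 of 5 of mast cells and 1 of 3 of neutrophils, and only through the knockout libraries by 4 of 6 of mesothelial cells and fibroblasts. No count of called markers is therefore given.

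**Figure D4:**
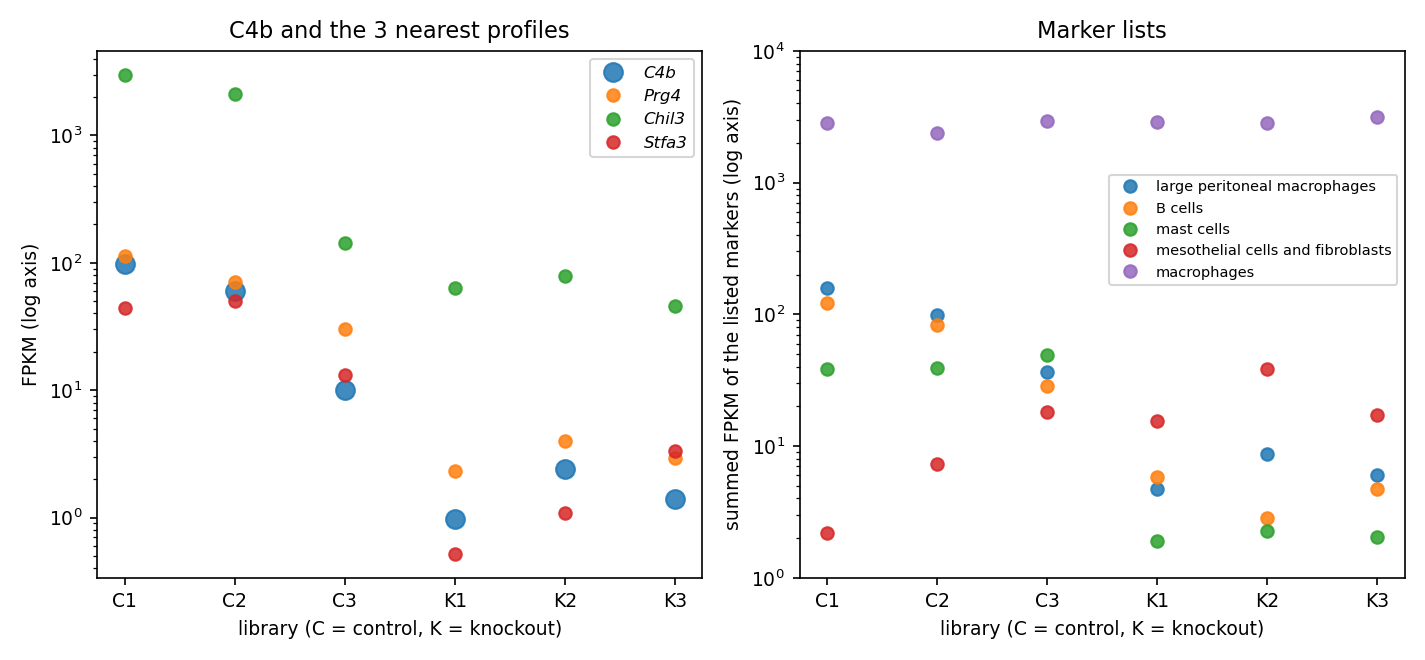
Left, FPKM (log axis) of C4b and the 3 genes with the nearest profiles in each library. Prg4 is also on the large peritoneal macrophage list of the right panel, as is Timd4, the floxed gene. Right, summed FPKM (log axis) of marker lists in the same libraries (C, control; K, knockout), in which the large peritoneal macrophage list falls from 36.6 to 157 FPKM in the controls to 4.76 to 8.67 FPKM in the knockout libraries while the sum of the general macrophage list lies between 2385 and 3143 FPKM, although some of its members are higher and others lower in the knockout libraries.

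The rest of the complement system was read from a list of 46 other complement genes, of which 25 are listed and 13 were tested. In limma with Benjamini-Hochberg adjustment over all tested genes, the one past the threshold was Vsig4, a macrophage receptor for C3b. Clu and C1s1 were tested only because their knockout libraries reached the filter, so nothing is read from the count. Of all tested genes, 7.31% were past the threshold. Vsig4 stood at 0.879, 1.999 and 1.29 FPKM across the knockout libraries, against 11.4, 8.33 and 9.23 FPKM across the control libraries. Every knockout library was below every control, and control library 3 was no lower than control library 2 (log2 fold change -2.17, standard error 0.20, adjusted p = 0.00547, limma). Without control library 2 the estimate was -2.26 with an adjusted p of 0.0549 in limma, and 8 genes in all passed. The estimate was -2.20 without control library 3 and -2.35 without knockout library 2. With all libraries it was -2.77 at a pseudocount of 0.1 and -2.72 with voom on recovered reads.

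Among the other receptors, Cd93, first described as a C1q receptor, stood at 35.2, 46.4 and 40.9 FPKM across the knockout libraries, against 17.6, 22.7 and 28.6 FPKM across the control libraries. The groups did not overlap, and the estimate was 0.82 on the log2 scale with a standard error of 0.20 (adjusted p = 0.0521 in limma, and 0.034 with the replicate number as a block). Without control library 3 it was 0.99 (adjusted p = 0.0138, limma). Lrp1, a large endocytic receptor that binds C1q and calreticulin, stood at 123, 143.9 and 127 FPKM across the knockout libraries, against 64.9, 56.7 and 108.5 FPKM across the control libraries (log2 fold change 0.82, adjusted p = 0.0818 in limma; 1.10 and 0.00457 without control library 3). Rescaling by the median of ratios put both past the threshold. With any single library other than control library 3 left out, neither passed it. In those limma fits adjusted p ran from 0.0678 to 0.213 for Cd93 and from 0.121 to 0.279 for Lrp1. Without control library 3 and knockout library 2 together, adjusted p in limma was 0.0542 for Cd93 and 0.0231 for Lrp1. The chains of complement receptors 3 and 4, which bind the C3 fragment iC3b, gave log2 fold changes of -0.26 for Itgam, 0.79 for Itgax and 0.05 for Itgb2, with adjusted p-values of 0.369, 0.257 and 0.824 in limma. Without control library 3 these log2 fold changes were -0.34, 0.38 and 0.07. Itgax was at 1.15 without control library 1, at 0.54 without knockout library 2 and at 0.13 without control library 3 and knockout library 2 together, and passed the threshold in none of these fits. For C1qbp and Calr, proteins reported to bind C1q, the values were -0.31 and 0.05 (adjusted p = 0.278 and 0.815, limma), and -0.19 and 0.10 without control library 3.

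In the lectin pathway, Fcna (ficolin A, a pattern recognition protein of macrophages) had a lower mean in the knockout libraries but overlapping groups. Fcna stood at 6.85, 14.5 and 6.49 FPKM across the knockout libraries, against 156.5, 107.2 and 8.70 FPKM across the control libraries. Control library 3 lay inside the knockout range, and the log2 fold change of -2.50 had an adjusted p of 0.153 in limma, which was 0.00152 (log2 fold change -3.75) without that library. The estimate was -1.74 without control library 1 (adjusted p = 0.233, limma), -2.01 without control library 2 (adjusted p = 0.371, limma) and -2.84 without knockout library 2 (adjusted p = 0.291, limma). Of the regulators, Cr1l (Crry, which restrains cleavage of C3 on cells) differed by 0.02 on the log2 scale (limma, adjusted p = 0.927). Its sign changed without single libraries, so no direction is given. Cd55, which breaks up the enzymes that cleave C3, lay under the filter with 21, 85 and 20 reads in the knockout and 532, 379 and 157 reads in the control libraries, without overlap. Clu (clusterin, an inhibitor of the terminal pathway) stood at 1.55, 3.59 and 1.56 FPKM in knockout libraries 1 to 3, above 0.0902, 0.434 and 1.48 FPKM in control libraries 1 to 3, and had reached the filter only through the knockout libraries (adjusted p = 0.126, limma). Serping1, the C1 inhibitor, lay under the filter with 43, 119 and 39 reads in the knockout and 6, 7 and 27 reads in the control libraries, also without overlap. C1s1, a protease of the C1 complex, stood at 0.537, 2.02 and 1.04 FPKM in knockout libraries 1 to 3, above 0.343, 0.273 and 0.187 FPKM in control libraries 1 to 3, and it too had reached the filter only through the knockout libraries (adjusted p = 0.102, limma). Cd55, Clu, Serping1 and C1s1 were named after their values were seen. Among the knockout libraries, Clu, Serping1 and C1s1 were highest in library 2. The sum of mesothelial and fibroblast markers was also highest there (15.5, 38.3 and 17.3 FPKM in knockout libraries 1 to 3). Among the controls, that sum was highest in library 3, as were Clu and Serping1 but not C1s1. A link was not tested. C2, the neighbour of Cfb on chromosome 17 and the partner of C4 in the classical pathway, was named after its values were seen and lay under the filter, with 31, 46 and 15 reads in the knockout and 113, 118 and 42 reads in the control libraries. Of the terminal pathway, Hc (complement C5) and C8g were listed, each with at most 8 reads in any library, and were named after their values were seen.

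**Figure D5:**
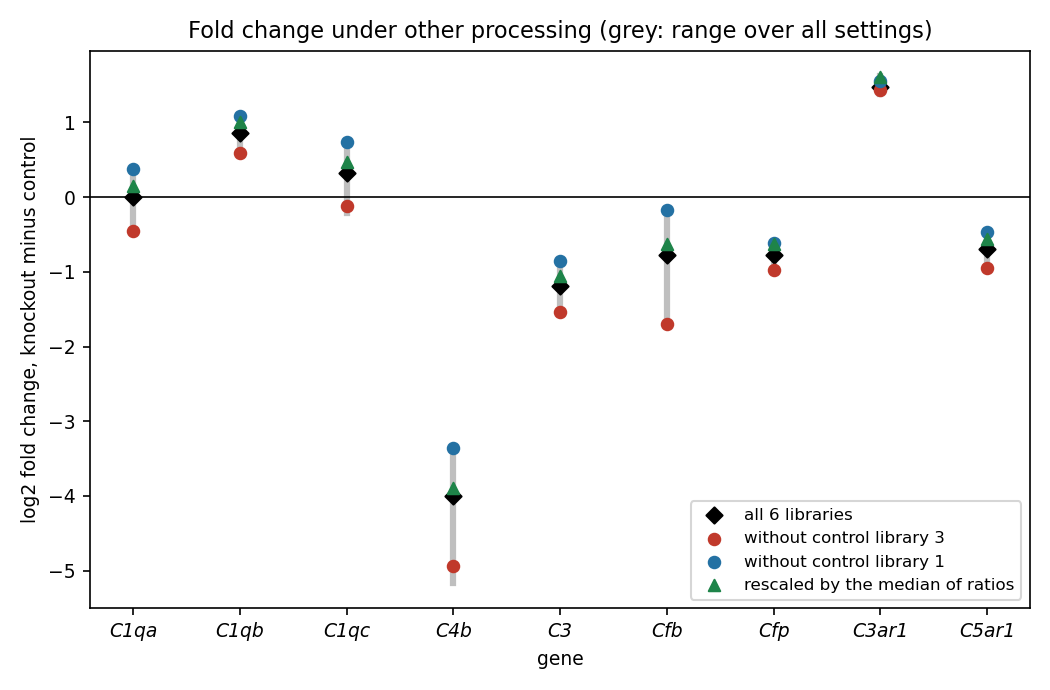
Log2 fold change of each of the 9 complement genes with all 6 libraries (diamond), without control library 3 (red), without control library 1 (blue) and after rescaling (green), with the grey bar spanning all settings tried. C3ar1 keeps within 1.38 and 1.62, while C1qa and C1qc cross 0 and Cfb runs from -1.70 to -0.17.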

How the data were processed

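RNA of 6 libraries was compared, grouped by title. The authors deposited FPKM per gene and library, computed from reads counted per gene. The authors' deposited signal columns hold group means of reads scaled by DESeq2 size factors. The authors' fold change (a ratio), its log2 value, p-value and q-value were not used. The labels name mm9. The aligner, counter and annotation are not given in the sources used here. Every value came out as whole reads (tolerance 0.05), recovered from the FPKM and group means, and the strand of the counting is not stated. No per-sample column was left unused.

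Fits used limma 3.58.1 (lmFit, then eBayes with a trend) in R 4.3.3 and took log2(FPKM + 1) on genes with a mean of at least 1 FPKM in one group, with Benjamini-Hochberg adjustment and a threshold of 0.05. The design had named a count model in case counts were deposited. The pseudocount of 1 understates the change of low genes. With 3 against 3, an exact two-sided permutation test cannot go below 0.1. The fit was also run on simulated reads that held no outlying library, so that run does not measure its errors in these data. The members and all lists were chosen with earlier results of these data known. One item of the complement list is not reported here. Named were the 9 genes, Timd4 and Lyz2, other complement genes past the threshold or with a mean of at least 10 FPKM in one group, the 3 nearest profiles to C4b and to the mean of the C1q chains, and, of each marker list (macrophages, large and small peritoneal macrophages, dendritic cells, B cells, T cells, neutrophils, mast cells, eosinophils, mesothelial cells with fibroblasts), the highest gene and those at 0. Marker genes not listed are Ighm, Ly6g, Elane, Prg2 and Epx. Deviations of same-numbered libraries were only weakly correlated (0.11, 0.11 and 0.30; other pairs -0.33 to 0.29, the highest for knockout 2 with control 1). This check does not establish a pairing, and no other evidence for one was used. The number was taken as a block because the design had named that alternative beforehand. Of the 9030 tested symbols, 9009 were found in RefSeq GRCm38.p6, used for neighbours and upstream sequence. Alternatives were another pseudocount and filter, the block, rescaling by the median of ratios, voom on recovered reads, each library left out, a threshold of 0.1 and, chosen after seeing the data, control library 3 and knockout library 2 left out together and C1q shares on reads.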

Additional observations from a re-analysis of the deposited data

How the results depend on the processing

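Over all tested genes 660 were past the threshold (232 higher, 428 lower). The count was 436 with a filter of 5 FPKM, 1421 at a threshold of 0.1, and between 8 and 1333 with one library left out. Rescaling by the median of ratios gave 342 higher and 320 lower, and voom 279 and 305. The 9 complement genes past the threshold, 2 in number, were 1 without a filter (where 446 of 15415 genes passed), 0 to 7 with one library left out and 5 without control library 3 and knockout library 2, a pair chosen after seeing the data. Of the other complement genes, 1 was past it, 2 with the replicate block (Vsig4, Cd93), 3 after rescaling (with Lrp1), 2 with voom, 0 without control library 2, 6 without control library 3 (C2, Fcna, Clu, Vsig4, Cd93 and Lrp1; C2 and Clu named after their values were seen, C2 reaching the filter only in the controls and only without that library) and 5 without that library and knockout library 2. The block changed no other call of a complement gene. Of all tested genes, 7.31% were past the threshold in the main fit and 9.47% with the block. It was passed by 662 of 9005 genes after rescaling and 584 of 9030 with voom. The share was 0.0888% without control library 2, 14.8% without control library 3 and 5.80% without that library and knockout library 2. Nothing is read from the counts of other complement genes. Log2 fold changes with one library left out ran from -0.052 to 0.092 for Cr1l, from -0.021 to 0.11 for Itgb2 and from -0.023 to 0.11 for Calr (0.16 without control library 3 and knockout library 2), and without that pair it was -0.072 for Cr1l. The cause of these changes was not tested. On recovered reads the C1qb share averaged 53.7% in the knockout and 42.4% in the control libraries.

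The values of C1qa, C1qb, C1qc, C3, Cfb, Cfp, C3ar1 and C5ar1 each rest on at least 1681 reads per library, so the spread between the 3 libraries of a group, rather than counting error, limits them.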
